A study of Penicillium oxalicum with 18 samples.

Results

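The genes described here are the 97 genes of the filamentous fungus Penicillium oxalicum, of 9277 identifiers in the table, whose transcripts stood at least 3-fold higher in both the hap3 and the hap5 deletion strain than in wild type, on glucose as well as on bran with cellulose. Each had a wild type mean at or above a set minimum on both media, although some had single wild type libraries listed at 0. The change between media was held under 4-fold in wild type and under 8-fold in each deletion. The groups were the hap3 deletion strain (hap3 mutant), the hap5 deletion strain (hap5 mutant) and wild type strain 114-2, each after 24 h on 1% bran with 1% microcrystalline cellulose and each after 24 h on 2% glucose. All cultures had first grown for 24 h at 30 °C on 2% glucose. Each of the 6 groups had 3 libraries, 18 in all.

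The Hap complex is a heteromeric transcription factor, also called the CCAAT-binding complex, that binds CCAAT sequences in promoters across eukaryotes. Hap3 and Hap5 are subunits with a histone-like fold, and in yeast and Aspergillus the complex does not bind DNA when either is missing. In filamentous fungi it has been described both as an activator and, with partner proteins, as a repressor, for instance in iron metabolism, and it takes part in the control of enzymes that degrade plant cell walls.

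The genes were chosen by their measured FPKM values in the deletions and in wild type. To the mean FPKM of the 3 libraries of a group (fragments mapped to a gene, scaled by gene length and library size) a constant of 1 was added, and the ratios of both deletions to wild type on both media were formed. Of the 9241 identifiers with a PDE locus tag, 244 had all 4 ratios at 3 or more. A wild type mean of at least 1 FPKM on both media left 159. A limit on the change between media, under 4-fold in wild type and under 8-fold in each deletion, left 100, and 3 of these were left out by tag. The differences of the deletions from wild type, and the limited change between media, are therefore a description and carry no test. Only the comparison of the hap5 with the hap3 mutant was tested. The rule set no difference between them, but it did hold the change between media under 8-fold in each.

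No file used here ties the identifiers to gene names, and none matched the reference gene table, so the genes are given by tag and their functions are not described. FPKM summed to between 966280 and 1202683 per library; read numbers behind these sums are unknown. Between 598 and 959 identifiers per library were listed at 0. Separate cultures are not stated for the 3 replicates of a group, and the p-values cover just the scatter among these libraries, which could be technical. In bulk samples, more cells with a transcript and more transcript per cell cannot be told apart.

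Together the 97 genes took a small part of the transcript pool that was several times larger without Hap3 or Hap5. On bran-cellulose they held 2.40% ± 0.046 of the FPKM total in the hap3 mutant and 2.36% ± 0.024 in the hap5 mutant, against 0.447% ± 0.030 in wild type (SD, n = 3). On glucose they held 1.59% ± 0.048 in the hap3 mutant and 1.82% ± 0.046 in the hap5 mutant, against 0.284% ± 0.028 in wild type (SD, n = 3). The median gene of the 97 had a mean of 115.5 FPKM in the hap3 mutant and 106.8 FPKM in the hap5 mutant on bran-cellulose, against 15.2 FPKM in wild type. On glucose its mean was 63.0 FPKM in the hap3 mutant and 76.2 FPKM in the hap5 mutant, against 10.1 FPKM in wild type. In wild type these medians lay above 30.6% of the 8681 tested genes on bran-cellulose and 30.1% on glucose. In the deletions they lay above 82.8% and 81.4% of tested genes on bran-cellulose and above 71.2% and 73.9% on glucose, for hap3 and hap5 in that order. The number of the 97 with a group mean of at least 100 FPKM was 53 and 50 in the hap3 and hap5 mutants on bran-cellulose, against 9 in wild type, and 34 in each deletion on glucose, against 6 in wild type.

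**Figure D1:**
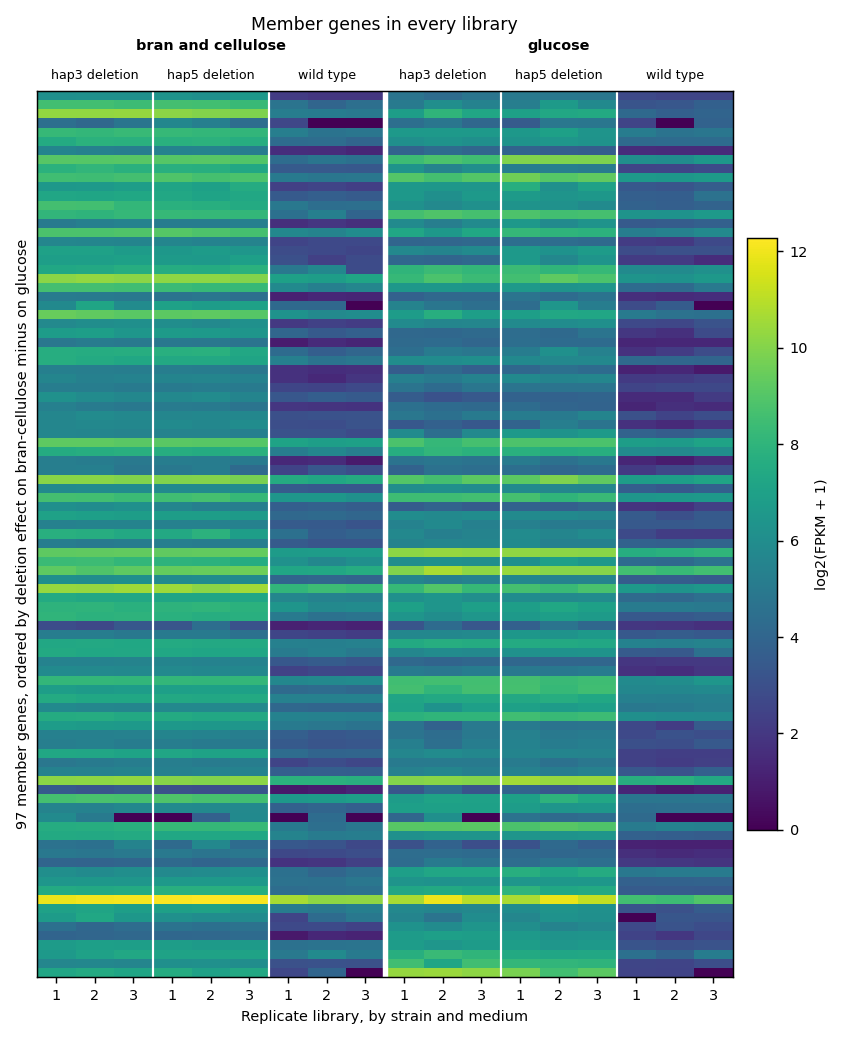
Level of each of the 97 genes (rows) in each of the 18 libraries (columns), as log2(FPKM + 1), with the deletion strains left of wild type on each medium. In most rows the wild type columns are darker than the deletion columns of the same medium, and the few cells at the lowest colour are among the 15 values listed at 0, which belong to 5 genes.

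The size of the difference varied widely among the genes. Median ratios to wild type were 5.95 in the hap3 mutant and 5.71 in the hap5 mutant on bran-cellulose, and 4.60 and 5.68 on glucose. Ratios reached 10 or more at 24 and 25 genes on bran-cellulose in the hap3 and hap5 mutants, and at 11 and 13 genes on glucose. On the log2(FPKM + 1) scale the median difference was 2.57 and 2.50 on bran-cellulose for the hap3 and hap5 mutants, where the medians of all tested genes were 0.05 and 0.04. On glucose it was 2.20 and 2.50, where the medians of all tested genes were 0.14 and 0.24. Scaling by the median of ratios moved the medians of all tested genes on glucose by -0.13 and -0.22, and those of the 97 genes to 2.07 and 2.26. Genes with a wild type mean under 10 FPKM on both media, 33 of the 97, had a median geometric mean ratio of 8.69, and the other 64 had 5.21. The wild type value enters both the grouping and the ratio, so nothing is read from this order.

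PDE_06126 had the largest average difference of the 97. On bran-cellulose it stood at 156, 179 and 147 FPKM in the hap3 mutant and at 191, 131 and 169 FPKM in the hap5 mutant, against 5.14, 14.8 and 0 FPKM in wild type. On glucose it stood at 1282, 1388 and 1162 FPKM in the hap3 mutant and at 907, 376 and 576 FPKM in the hap5 mutant, against 4.72, 4.60 and 0 FPKM in wild type. Every deletion library lay above every wild type library, which were all low and included a value listed at 0 on each medium. Next came PDE_03934, a gene that was low in wild type and among the more abundant of the 97 in the deletions on bran-cellulose. There it measured 1242, 1252 and 1289 FPKM in the hap3 mutant and 1117, 1018 and 964 FPKM in the hap5 mutant, against 35.6, 34.6 and 30.2 FPKM in wild type. On glucose PDE_03934 measured 115, 260 and 151 FPKM in the hap3 mutant and 124, 164 and 174 FPKM in the hap5 mutant, against 17.6, 12.6 and 14.5 FPKM in wild type. Neither deletion overlapped with wild type on either medium. The ratios to wild type were 36.6 and 30.0 on bran-cellulose and 11.1 and 9.75 on glucose for hap3 and hap5.

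At the other end of the list the difference was near the 3-fold limit. PDE_00412 had the smallest average difference. It stood at 55.6, 48.8 and 46.7 FPKM in the hap3 mutant and 52.4, 51.9 and 53.6 FPKM in the hap5 mutant on bran-cellulose, against 16.0, 14.9 and 15.3 FPKM in wild type. On glucose PDE_00412 stood at 135, 74.8 and 122 FPKM in the hap3 mutant and 126, 107 and 120.1 FPKM in the hap5 mutant, against 29.6, 31.5 and 36.7 FPKM in wild type. Its ratios lay between 3.13 and 3.54 in all comparisons, and neither deletion overlapped with wild type. PDE_08404 was similar, with ratios between 3.23 and 3.70 and wild type means of 9.05 ± 1.23 FPKM on bran-cellulose and 13.5 ± 1.01 FPKM on glucose (SD, n = 3).

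Levels within the list differed widely. Ranked by the mean over all 18 libraries, PDE_09715 was the most abundant of the 97 genes, and its mean was also the highest in each of the 6 groups. On bran-cellulose it measured 3910, 4343 and 4416 FPKM in the hap3 mutant and 4806, 4990 and 4527 FPKM in the hap5 mutant, against 1656, 1181 and 1215 FPKM in wild type. On glucose it measured 1649, 4063 and 1981 FPKM in the hap3 mutant and 1699, 3796 and 2261 FPKM in the hap5 mutant, against 384, 340 and 498 FPKM in wild type. On glucose replicate 2 was the highest library of both deletions, and no deletion library reached down to wild type. By the same mean PDE_01899 came second, although other genes of the 97 were higher in single groups. It stood at 1193 ± 73.9 FPKM in the hap3 mutant and 1064 ± 84.4 FPKM in the hap5 mutant and 222 ± 9.58 FPKM in wild type on bran-cellulose. On glucose it stood at 1051 ± 37.9 FPKM in the hap3 mutant and 1385 ± 126 FPKM in the hap5 mutant and at 202 ± 27.5 FPKM in wild type (SD, n = 3). The lowest gene by the mean over all libraries was PDE_00958, with 9.78 ± 1.08 and 7.40 ± 0.741 FPKM in the hap3 and hap5 mutants and 1.02 ± 0.380 FPKM in wild type on bran-cellulose. PDE_06341 was the second lowest by that mean and below PDE_00958 in the hap3 mutant on bran-cellulose, with 7.14 ± 2.20 and 12.2 ± 7.25 FPKM in the hap3 and hap5 mutants and 1.29 ± 0.168 FPKM in wild type on the same medium.

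**Figure D2:**
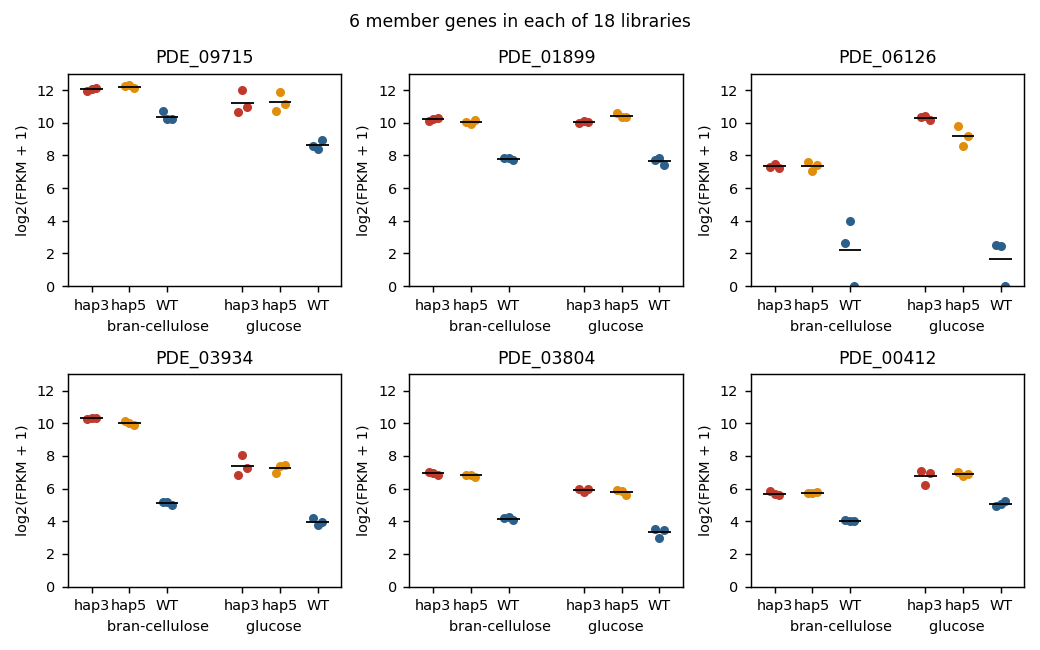
Level of 6 of the 97 genes as log2(FPKM + 1) in each library (points) with the group mean on that scale (bar), on bran-cellulose and on glucose. Within each medium the points of both deletions lie above those of wild type, from PDE_00412, with ratios between 3.13 and 3.54, to PDE_06126, where 1 wild type library on each medium is listed at 0.

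The median SD among replicates on the log2 scale was compared with that of all tested genes. For the 97 it was 0.184 in the hap5 mutant on glucose, and 0.180 and 0.172 in wild type on glucose and bran-cellulose. Those of all tested genes were lower, at 0.122, 0.126 and 0.0995. In the hap3 mutant on glucose and bran-cellulose and the hap5 mutant on bran-cellulose it was 0.200, 0.0951 and 0.103. There all tested genes had 0.221, 0.0986 and 0.106. All 3 hap3 mutant libraries lay above all 3 wild type libraries at 96 of the 97 genes on bran-cellulose and at 96 on glucose. Over all tested genes this held for 40.8% and 36.5%, and the rule itself favours it. For the hap5 mutant the counts were also 96 and 96, beside 39.7% and 47.6% of all tested genes. In all 4 comparisons together, 95 genes were separate from wild type, beside 18.3% of all tested genes. The gene nearest the median profile of the 97, PDE_03804, had 121 ± 7.79 and 110.5 ± 5.66 FPKM in the hap3 and hap5 mutants and 16.7 ± 1.13 FPKM in wild type on bran-cellulose. On glucose it had 59.5 ± 4.58 and 54.4 ± 5.15 FPKM in the hap3 and hap5 mutants and 9.16 ± 1.99 FPKM in wild type (SD, n = 3).

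The smallest spread between replicates was at PDE_09467 and PDE_02823. PDE_09467 read 164, 171 and 159 FPKM in the hap3 mutant and 182, 172 and 173 FPKM in the hap5 mutant on bran-cellulose, against 39.6, 38.1 and 40.9 FPKM in wild type. On glucose PDE_09467 read 177, 200.1 and 185 FPKM in the hap3 mutant and 181, 173 and 166 FPKM in the hap5 mutant, against 43.3, 39.6 and 44.8 FPKM in wild type. It thus sat at about the same level on both media within each strain. PDE_02823 had 87.3 ± 1.27 and 97.6 ± 1.91 FPKM in the hap3 and hap5 mutants and 25.2 ± 3.0 FPKM in wild type on bran-cellulose.

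PDE_05124 had the largest spread, with 7 of its 18 values listed at 0. On bran-cellulose it read 58.5, 32.3 and 0 FPKM in the hap3 mutant and 0, 13.2 and 55.7 FPKM in the hap5 mutant, against 0, 19.3 and 0 FPKM in wild type. On glucose it read 15.9, 67.7 and 0 FPKM in the hap3 mutant and 24.1, 18.2 and 19.7 FPKM in the hap5 mutant, against 17.9, 0 and 0 FPKM in wild type. Its strains overlapped everywhere except for the hap5 mutant on glucose, so that it met the rule by its means alone. PDE_06863, named after its values were seen, overlapped with wild type in the hap5 mutant on glucose, at 10.7, 28.2 and 27.6 FPKM against 4.72, 0 and 13.4 FPKM. PDE_02122 had the second largest spread. It read 55.5, 147 and 60.8 FPKM in the hap3 mutant and 129, 111 and 128 FPKM in the hap5 mutant on bran-cellulose, against 17.6, 16.9 and 0 FPKM in wild type, with no overlap.

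Between the media the genes moved in both directions, within the limits of the rule. In the hap3 mutant 40 of the 97 genes were higher by at least 1 on the log2 scale on bran-cellulose than on glucose, and 10 were lower. Over all tested genes the shares were 19.5% and 14.0%. In the hap5 mutant 30 were higher and 11 lower, beside 14.7% and 11.7% of all tested genes. In wild type 25 were higher and 13 lower, beside 23.9% and 14.4% of all tested genes. The median change was 0.69 in the hap3 mutant, 0.35 in the hap5 mutant and 0.28 in wild type. That of wild type was -0.23 after quantile normalization, which moved the median of all tested genes by -0.26. The direction was the same in the hap3 mutant and wild type at 77 of the 97 genes, and in the hap5 mutant and wild type at 75. Across the 97 genes the change between media in the hap3 mutant correlated with that in wild type at r = 0.663 (Spearman 0.717), and that in the hap5 mutant at r = 0.684 (Spearman 0.715). Over all tested genes r was 0.535 and 0.550. These pairs share no libraries, but the rule tied the strains together, and genes are not independent replicates.

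The deletion effect, averaged over both deletions, was compared between the media as a description. It differed by less than 1 on the log2 scale at 73 of the 97. It was larger by at least 1 on bran-cellulose at 17 genes and smaller by at least 1 at 7, beside 12.6% and 18.6% of all tested genes. The rule limits the change between media, so nothing is read from these counts. The largest excess on bran-cellulose was at PDE_05782. There it measured 69.3, 70.4 and 71.3 FPKM in the hap3 mutant and 77.7, 69.4 and 92.1 FPKM in the hap5 mutant, against 3.48, 3.0 and 3.03 FPKM in wild type. On glucose PDE_05782 measured 25.4, 19.2 and 26.8 FPKM in the hap3 mutant and 30.7, 28.8 and 28.3 FPKM in the hap5 mutant, against 5.56, 4.96 and 4.83 FPKM in wild type. Both deletions were thus higher and wild type lower on bran-cellulose than on glucose. PDE_02854 came next, with ratios of 16.9 and 16.8 on bran-cellulose and of 4.38 and 6.05 on glucose for hap3 and hap5.

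The opposite order was found at PDE_09686 and at PDE_06126. PDE_09686 measured 48.8, 49.8 and 47.5 FPKM in the hap3 mutant and 67.7, 69.7 and 64.6 FPKM in the hap5 mutant on bran-cellulose, against 7.35, 7.51 and 7.18 FPKM in wild type. On glucose PDE_09686 measured 366, 150.3 and 362 FPKM in the hap3 mutant and 278, 273 and 254 FPKM in the hap5 mutant, against 5.00, 4.81 and 6.38 FPKM in wild type. Wild type was low on both media, while the deletions were several times higher on glucose than on bran-cellulose, with replicate 2 of the hap3 mutant the lowest of them on glucose. Its effect was smaller by 2.61 on the log2 scale on bran-cellulose, and that of PDE_06126 by 2.95.

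**Figure D3:**
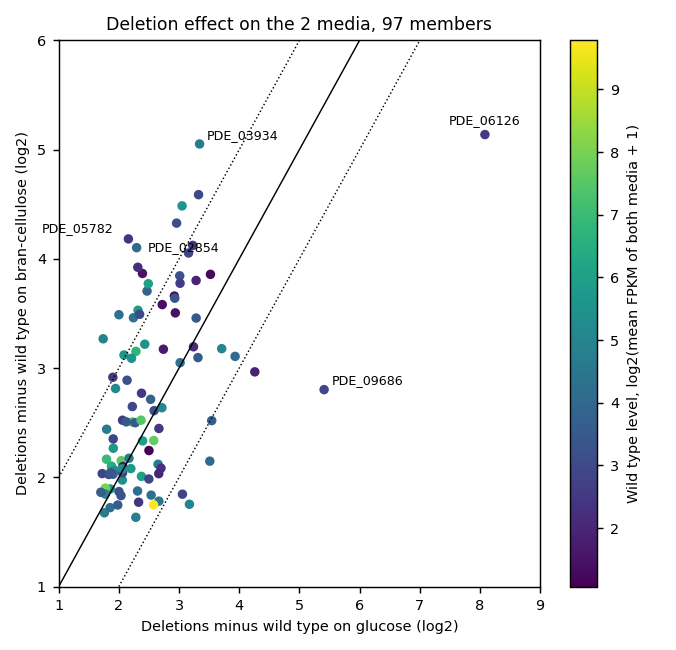
Difference of the deletions (mean of hap3 and hap5) from wild type on the log2(FPKM + 1) scale, on glucose (horizontal) and on bran-cellulose (vertical), for the 97 genes, coloured by wild type level. The solid line marks equal effects and the dotted lines a difference of 1. Of the 97 genes, 73 lie between the dotted lines, 17 above and 7 below.

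The deletions of hap3 and hap5 were compared with each other to see where the loss of the 2 subunits differed. The test was limma's moderated test on log2(FPKM + 1), with Benjamini-Hochberg adjustment over all 8681 tested genes, an adjusted p under 0.05 and a change of at least 1. All 97 genes were among those tested. On bran-cellulose 0 of the 97 genes passed in either direction, beside 0.276% of all tested genes called higher and 0.196% called lower. At an unadjusted p under 0.05 there were 8, beside 13.3% of all tested genes. An adjusted p under 0.05 with a smaller change was found at 3, beside 2.17% of all tested genes at that p with any change (limma). The differences ran from -0.82 to 0.66, with a median of -0.05. On glucose 4 genes were higher in the hap5 than in the hap3 mutant and 0 lower, 4.12% and 0% of the 97, beside 2.97% and 1.04% of all tested genes. At an unadjusted p under 0.05 there were 39, beside 33.5% of all tested genes, and at an adjusted p under 0.05 without a minimum change 13 were higher and 5 lower. These are 18 of the 97, a share near the 19.8% of all tested genes. Levels of the 97 genes in the hap5 and hap3 mutants correlated at r = 0.989 on bran-cellulose and 0.969 on glucose, and over all tested genes at 0.989 and 0.972.

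PDE_09323 showed the largest difference between the deletions. On glucose it stood at 96.2, 51.3 and 81.0 FPKM in the hap5 mutant and 16.0, 15.0 and 17.6 FPKM in the hap3 mutant, against 3.35, 3.33 and 1.97 FPKM in wild type. The 3 strains were ordered with no overlap. Its log2 difference, hap5 minus hap3, was 2.12 (SE 0.21, adjusted p = 1.24e-05, limma), higher in 3 of 3 libraries. On bran-cellulose the deletions met, at 104, 95.1 and 119.9 FPKM in the hap5 mutant and 118, 117 and 125 FPKM in the hap3 mutant, against 6.90, 4.04 and 5.97 FPKM in wild type. PDE_03857 was second on glucose, at 995, 949.8 and 917 FPKM in the hap5 mutant and 340, 447 and 363 FPKM in the hap3 mutant, against 67.2, 62.4 and 88.4 FPKM in wild type. Its log2 change was 1.32 (SE 0.13, adjusted p = 9.78e-06, limma), again with no overlap. On bran-cellulose it stood at 519 ± 24.6 FPKM in the hap5 mutant and 537 ± 11.9 FPKM in the hap3 mutant, against 22.8 ± 3.51 FPKM in wild type (SD, n = 3).

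The other 2 called genes, named after their values were seen, were less stable. PDE_04713 stood at 98.2, 78.7 and 104 FPKM in the hap5 mutant and 59.3, 20.5 and 53.9 FPKM in the hap3 mutant on glucose, a log2 change of 1.18 (SE 0.27, adjusted p = 0.00758, limma). Without replicate 2 of the hap3 mutant the change was 0.71 and fell under the minimum. PDE_06987 stood at 13.8, 37.8 and 25.1 FPKM in the hap5 mutant and 9.36, 13.1 and 9.47 FPKM in the hap3 mutant on glucose, a log2 change of 1.10 (SE 0.25, adjusted p = 0.00615, limma). Without replicate 2 of the hap5 mutant it was 0.77. Fitting the 6 libraries of the 2 groups alone called 2 of the 97 genes, PDE_09323 and PDE_03857, in place of 4.

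The change between media was then compared between the deletions. The rule held this change under 8-fold in each deletion, so genes with a larger change were not among the 97. All tested genes had no such limit. The comparison also uses the glucose libraries of the comparison above, so its calls are not independent of those. The change between media was lower in the hap5 than in the hap3 mutant at 5 of the 97 genes, 5.15%, and higher at 0, beside 3.2% and 1.5% of all tested genes. At an unadjusted p under 0.05 there were 27 genes, beside 30.4% of all tested genes. At an adjusted p under 0.05 without a minimum change 13 were lower and 2 higher (limma), together a share near the 15.1% of all tested genes. PDE_09323 changed by 0.52 between media in the hap5 mutant and by 2.82 in the hap3 mutant, a difference of -2.30 (SE 0.30, adjusted p = 0.000307, limma). PDE_03857 changed by -0.88 in the hap5 mutant and by 0.49 in the hap3 mutant, a difference of -1.37 (SE 0.18, adjusted p = 0.000347, limma). In wild type PDE_09323 changed by 0.77 and PDE_03857 by -1.63. The count of 5 became 3 without hap5 mutant replicate 3 on glucose, without hap3 mutant replicate 1 or 2 on bran-cellulose, or without hap5 mutant replicate 3 on bran-cellulose. Median-of-ratios scaling moved the median of all tested genes in this comparison by 0.12, from -0.12, and left 4 genes called.

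**Figure D4:**
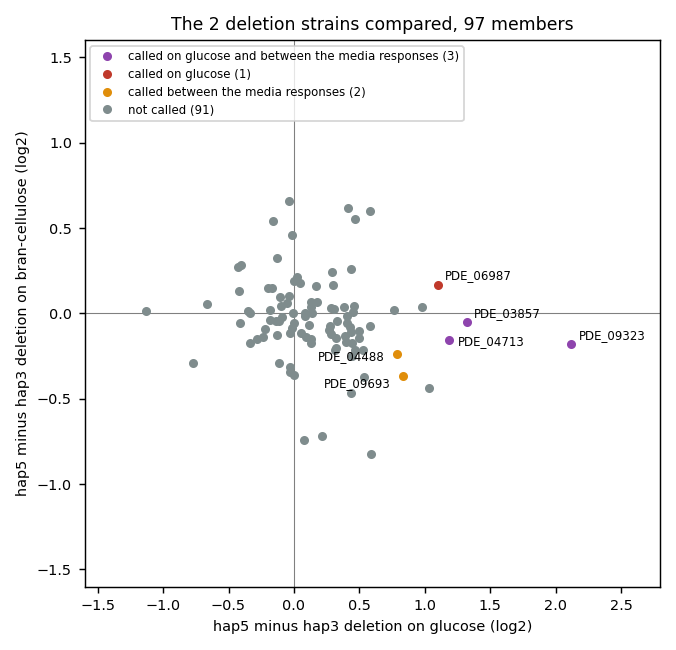
Difference of the hap5 from the hap3 mutant on the log2(FPKM + 1) scale, on glucose (horizontal) and on bran-cellulose (vertical), for the 97 genes. Called genes are named, and all 6 of them lie to the right of 0 on the glucose axis and closer to 0 on the other.

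Tag numbers, which the rule used only to leave genes out, placed some of the genes side by side. Whether tag order follows the chromosome was not checked here. Of the 97 genes, 5 had tags from PDE_02118 to PDE_02123, and PDE_04679 with PDE_04680 and PDE_08237 with PDE_08238 made pairs. No other genes of the 97 lay within 2 tag numbers of each other. PDE_02118, the first of the run, stood at 330, 338 and 276 FPKM in the hap3 mutant and 248, 240.1 and 196 FPKM in the hap5 mutant on bran-cellulose, against 73.3, 49.7 and 68.6 FPKM in wild type. PDE_02123, the last of the run, stood at 1139, 1262 and 1132 FPKM in the hap3 mutant and 1171, 1184 and 1041 FPKM in the hap5 mutant there, against 125, 115 and 149 FPKM in wild type. On glucose PDE_02118 had 67.6 ± 2.23 and 94.2 ± 25.7 FPKM in the hap3 and hap5 mutants and 20.1 ± 3.26 FPKM in wild type, and PDE_02123 had 358 ± 73.0 and 478 ± 119 FPKM and 83.0 ± 8.91 FPKM in the same groups (SD, n = 3). Replicate 2 of the hap5 mutant on glucose was the highest of its group at all 5 genes of the run.

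The tags on both sides of the run did not all share its pattern. On the low side PDE_02115 was far lower in the deletions than in wild type on bran-cellulose, at 102 ± 3.68 and 103 ± 7.06 FPKM against 1238 ± 89.3 FPKM (SD, n = 3). On the high side PDE_02124 was at 2.07 FPKM or less in every library. PDE_02125 beyond it had 2021 ± 136 and 1737 ± 200 FPKM in the hap3 and hap5 mutants and 196 ± 11.5 FPKM in wild type on bran-cellulose, and 591 ± 63.5 and 2037 ± 1044 FPKM and 31.6 ± 10.1 FPKM in the same groups on glucose (SD, n = 3). It is not among the 97 because its wild type level changed by more than the limit between media. These neighbours were named after their values were seen.

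**Figure D5:**
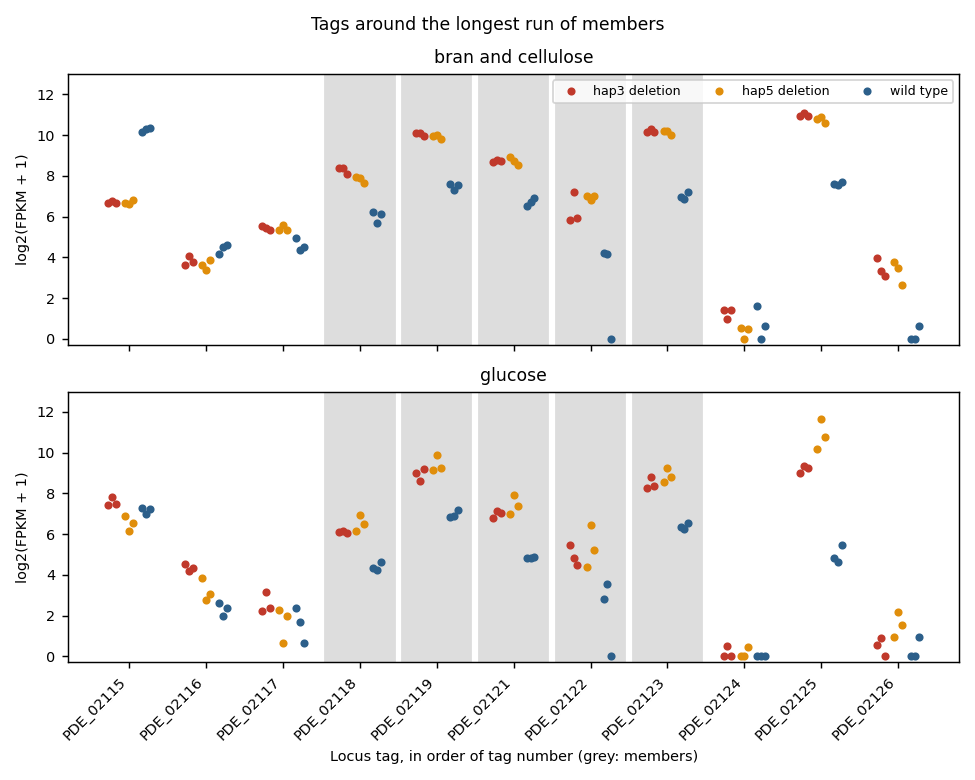
Level as log2(FPKM + 1) in each library of the tags around the run from PDE_02118 to PDE_02123 (grey bands), on bran-cellulose (upper) and on glucose (lower). Within the bands the deletion points lie above the wild type points on both media, as they also do at PDE_02125, while PDE_02115 is highest in wild type on bran-cellulose.

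Genes next to one of the 97 by tag number, and not themselves among them, were counted in the same way. Of 160 tested neighbours, 17 had a log2 difference from wild type of at least 1 in both deletions on both media, 10.6%. The share was 5.18% of all tested genes with PDE tags outside the 97, a set that includes these neighbours. It was 6.26% of all tested genes with the 97 included. On bran-cellulose 41 and 38 neighbours reached that difference in the hap3 and hap5 mutants, 25.6% and 23.8%. Beside these stood 16.5% and 16.2% of the tested genes with PDE tags outside the 97. On glucose 38 and 42 did, 23.8% and 26.2%, beside 15.1% and 17.4%. The difference between these shares was not tested.

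Near the limit of the rule the list has no natural gap. PDE_08238 and PDE_03280 were the nearest inside, with smallest ratios of 3.03 and 3.04, and PDE_04334 and PDE_05019 the nearest outside, with 2.98 and 2.97. PDE_08238 had 169 ± 8.50 and 149 ± 2.68 FPKM in the hap3 and hap5 mutants and 43.5 ± 4.42 FPKM in wild type on bran-cellulose. PDE_04334 had 125 ± 10.7 and 138 ± 18.6 FPKM in the hap3 and hap5 mutants and 41.2 ± 8.28 FPKM in wild type on the same medium (SD, n = 3). A smallest ratio under 3.5 was found at 29 of the 97 genes, one of 5 or more at 27, and 47 genes that met every other condition lay between 2.5 and 3. The smallest of the ratios was that of the hap3 mutant on glucose at 44 genes, that of the hap5 mutant on glucose at 19, and that of the hap3 and hap5 mutants on bran-cellulose at 18 and 16.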

How the data were processed

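The labels' protocols describe NlaIII and MmeI tag libraries from poly(A) RNA, whereas the authors deposited FPKM with 2 decimals, per the file headers. The aligner, quantifier, build, annotation and strand handling: not given in the sources used here. Dividing by length alters levels between genes, not a gene's FPKM ratio between libraries. The table names the medium that is not glucose differently from the titles, and was paired with it as the remaining medium; 0 columns stayed unmapped. None of the identifiers matched the reference table of strain HP7-1 (9964 genes).

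The members and lists were chosen with earlier results of these data known. Depth is unknown: ratios of low values gathered at most 2.68% to 11.0% of low genes within 0.02 log2 units, so whole reads were not recovered. Genes with at least 1 FPKM in 3 libraries (8681) were fitted on log2(FPKM + 1) with limma 3.58.1 in R 4.3.3 over all 18 libraries, tested on simulated data. This scale understates changes of low genes. Alternatives were other pseudocounts, filters, scalings, a replicate block, fewer groups, no minimum change, each library left out, and other settings of the rule. Named genes were the 2 extremes each way of change, level, spread, effect by medium, threshold and deletion comparison, the ends of tag runs and the gene nearest the median profile. The correlation of deviations of same-numbered hap5 and hap3 mutant libraries on a medium ran from 0.00158 to 0.202. Between libraries of different numbers it ran from -0.210 to 0.155. Wild type was not part of this check, which does not settle whether the numbers mark pairs. The main fit did not take them as pairs.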

Additional observations from a re-analysis of the deposited data

Results flagged for a closer look

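At 6 of the 97 genes the 2 deletion strains differed by limma's test of the difference itself, on glucose or in the change between media, with an adjusted p under 0.05 and a log2 difference of at least 1. Both comparisons use the same glucose libraries, so their calls are not independent. On bran-cellulose the differences at PDE_09323 and PDE_03857 were just -0.18 and -0.05. Genes called in either comparison were not counted among all tested genes, so the 6 have no share beside them. On glucose 2.97% of all tested genes were called higher and 1.04% lower, and for the change between media 1.5% higher and 3.2% lower. By adjusted p alone 18 of the 97 differed on glucose, beside 19.8% of all tested genes, and 15 in the change between media, beside 15.1%. On glucose the hap5 mutant was higher than the hap3 mutant by 2.12 at PDE_09323, 1.32 at PDE_03857, 1.18 at PDE_04713 and 1.10 at PDE_06987 on the log2 scale. The change from glucose to bran and cellulose was lower in the hap5 than in the hap3 mutant by a log2 difference of -2.30 at PDE_09323, -1.37 at PDE_03857, -1.34 at PDE_04713 (adjusted p = 0.0317), -1.20 at PDE_09693 (adjusted p = 0.000921) and -1.03 at PDE_04488 (adjusted p = 0.00301).

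The difference at PDE_04713 lost its call in 8 of the 12 fits that left out a library of a deletion strain, those without hap3 mutant replicate 2 or hap5 mutant replicates 1 or 3 on glucose, and without hap3 mutant replicates 1 or 2 or any hap5 mutant replicate on bran-cellulose. PDE_04488 lost it in 4 of 12, those without hap5 mutant replicate 3 on glucose, and without hap3 mutant replicates 1 or 2 or hap5 mutant replicate 3 on bran-cellulose. PDE_09323, PDE_03857 and PDE_09693 kept theirs in all 12.

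PDE_09693 and PDE_04488 were named after their values were seen. PDE_09693 stood at 90.5, 106 and 87.7 FPKM in the hap5 mutant and 129, 131 and 107 FPKM in the hap3 mutant on bran-cellulose, against 6.13, 5.47 and 5.01 FPKM in wild type. On glucose it stood at 100.4, 76.5 and 106 FPKM in the hap5 mutant and 52.7, 46.4 and 57.4 FPKM in the hap3 mutant, against 6.22, 7.32 and 7.26 FPKM in wild type. The hap3 mutant libraries thus lay higher on bran-cellulose and lower on glucose, with no overlap on either medium. Neither difference was called by itself. That on bran-cellulose, hap5 minus hap3, was -0.37 (adjusted p = 0.196, limma). That on glucose was 0.83 (adjusted p = 0.000471, limma), under the minimum change. PDE_04488 stood at 28.6 ± 4.80 FPKM in the hap5 mutant and 33.8 ± 3.77 FPKM in the hap3 mutant on bran-cellulose, and at 89.2 ± 9.49 and 51.1 ± 1.88 FPKM on glucose (SD, n = 3). Replicate 2 of the hap3 mutant on glucose, which had the highest FPKM total, read 20.5 FPKM at PDE_04713 beside 59.3 and 53.9 FPKM in the other libraries of its group. Without that library the log2 difference at PDE_04713 was 0.71 on glucose and -0.86 in the change between media, and neither was called.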

How the results depend on the processing

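The rule found 97 genes, and 93 to 101 when each library was left out in turn, with 70 found every time. It found 51 at 4-fold, 259 at 2-fold and 147 without limits between media. It found 79 after median-of-ratios scaling (77 shared), 81 after quantile normalization (66 shared), and 97 from replicate medians (85 shared). Of the 97 genes, the hap5 against hap3 comparison called 4 on glucose, 0 on bran-cellulose and 5 for the change between media. Leaving out each library gave 4 to 5, 0 to 0 and 3 to 7. Which genes were called also changed. On glucose PDE_00770 was called higher without hap3 mutant replicate 1 or 3, or without hap5 mutant replicate 2 or 3. PDE_04300 was called lower there without hap3 mutant replicate 2. Both were under the minimum change in the main fit. For the change between media PDE_00239, PDE_00770, PDE_02118, PDE_06987 and PDE_07110 were called only in some of these fits. Without a minimum change the counts were 18, 3 and 15, and with the compared groups alone the glucose count was 2. The replicate block gave 4, 0 and 5 genes, and changed no call count. On glucose PDE_09323 and PDE_03857 stayed called in all settings run, with adjusted p up to 0.0249 and 0.0150, while PDE_06987 reached 0.196 and PDE_04713 0.211 with the compared groups alone, at unchanged log2 differences of 1.10 and 1.18. For the change between media PDE_04713 was lost with those groups alone too (adjusted p = 0.0894, limma), at an unchanged -1.34. PDE_06987 was also lost after median-of-ratios scaling and quantile normalization, as was PDE_04488 for the change between media.

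The sign of the median log2 differences from wild type is fixed by the rule, and their size varied. With a pseudocount of 0.1 those of hap3 and hap5 were 2.75 and 2.72 on bran-cellulose and 2.39 and 2.61 on glucose. With a pseudocount of 5 they were 2.23 and 2.19, and 1.90 and 2.03. Median-of-ratios scaling gave 2.07 and 2.26 on glucose, and quantile normalization 1.94 and 2.14 there and 2.64 for hap3 on bran-cellulose. Leaving out each library gave 2.51 to 2.63 and 2.48 to 2.56 on bran-cellulose, and 2.18 to 2.30 and 2.42 to 2.57 on glucose. The causes were not tested. Depth is unknown, so no counting error can be given for low genes.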

Other observations

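Some low values were identical in different genes. PDE_06126 and PDE_06863 were both listed at 4.72 FPKM in wild type replicate 1 on glucose and at 5.14 FPKM in wild type replicate 1 on bran-cellulose, and both were listed at 0 in wild type replicate 3 on bran-cellulose. In the deletions the same genes were far apart, with PDE_06126 at 1282, 1388 and 1162 FPKM and PDE_06863 at 20.5, 27.3 and 16.4 FPKM in the hap3 mutant on glucose.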
